A study of Mus musculus with 9 samples.

Results

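RNA from RAW264.7 cells stimulated with RANKL was compared with RNA from unstimulated RAW264.7 cells, across every gene that could be tested. These are murine macrophages of an established line, able to form osteoclast-like cells, and the libraries therefore come from 1 line and not from primary cells. The Control group had no RANKL, and the RANKL group received 50 ng/mL RANKL. Cells were harvested after 72 h, that is on day 3. Each group had 3 libraries that the labels call replicate biosamples. A further 3 libraries of RANKL + UD, which also received uridine, entered the choice of genes, the scaling and the estimate of the spread. The 6 libraries compared here are thus 6 of 9. The genes followed are the 11995 of 56691 that reached 1 FPKM or more in 3 or more of the 9 libraries. FPKM is the read count of a gene divided by its exonic length and the library total, so it can be set side by side between genes as a level. Total counts were 15951800 to 19746862 in Control and 19182637 to 19705724 in RANKL. Values after ± are the SD of 3 libraries unless SE is written. In both groups replicate 3 stood furthest from the other replicates, the chi-square of paired counts divided by its degrees of freedom being 8.92 to 9.92 in Control and 6.63 to 8.85 in RANKL, against 3.02 and 4.16 between replicates 1 and 2. Of the 44696 genes that were not tested, 31272 had 0 counts in all 6 libraries, and 325 had at least 50 counts in every library of either group.

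Osteoclasts are the cells that dissolve bone. They arise when precursors of the macrophage lineage are stimulated by RANKL, a cytokine of the TNF family, through its receptor RANK. RANK recruits TRAF adaptors and activates NF-kB and AP-1, costimulatory receptors carrying ITAM motifs raise calcium, and calcineurin then activates NFATc1, the transcription factor that drives most osteoclast genes. The mature cell is formed by fusion, seals itself to bone with a ring of podosomes, acidifies the sealed space with a V-ATPase proton pump and a chloride channel, and digests the matrix with cathepsin K and MMP9.

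The labelled cell types were first checked against their markers. Of 12 mature osteoclast markers, 11 were tested and all 11 were higher in RANKL by at least 2-fold, with a median log2 fold change of 4.39, and their summed level was 96.1 to 103 FPKM in the Control libraries and 2911 to 3129 FPKM in the RANKL libraries. The remaining marker, Calcr, the calcitonin receptor of mature osteoclasts, was below the filter, with 0 ± 0 FPKM in Control and 0.323 ± 0.16 FPKM in RANKL. Of 10 macrophage markers, 9 were tested, 7 were lower and 2 were higher, and their summed level was 9655 to 10269 FPKM in Control and 2673 to 2919 FPKM in RANKL. The RANKL libraries therefore held osteoclast transcripts beside macrophage transcripts. Over all tested genes 27.3% were higher and 30.2% lower, and 5.39% were higher by at least 2-fold. The markers were listed with earlier results of these data known, so their counts are not an independent check. In RNA from a whole culture, fewer cells of a type and less RNA per cell cannot be told apart. Over all transcripts, expressed as TPM computed from the deposited FPKM, osteoclast markers took 0.0338 ± 0.0015% of the pool in Control and 0.988 ± 0.018% in RANKL, and macrophage markers took 3.33 ± 0.13% and 0.910 ± 0.025% (SD, n = 3 each). Among markers of other cells, 0 of 12 for osteoblasts and stroma and 0 of 7 for neutrophils reached the filter. For T cells 1 of 6 markers was tested, Lck, a kinase of the T-cell receptor pathway, at 1.2 FPKM in Control and 1.61 FPKM in RANKL. For B cells 1 of 5 was tested, Ighm, the immunoglobulin mu heavy chain, while Ms4a1 and Pax5 were listed at 0. For dendritic cells 2 of 7 were tested, Zbtb46 at 0.32 FPKM in Control and 0.977 FPKM in RANKL and Itgax at 14.1 FPKM in Control and 40.9 FPKM in RANKL, both higher in RANKL, and Flt3 was listed at 0.

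**Figure D1:**
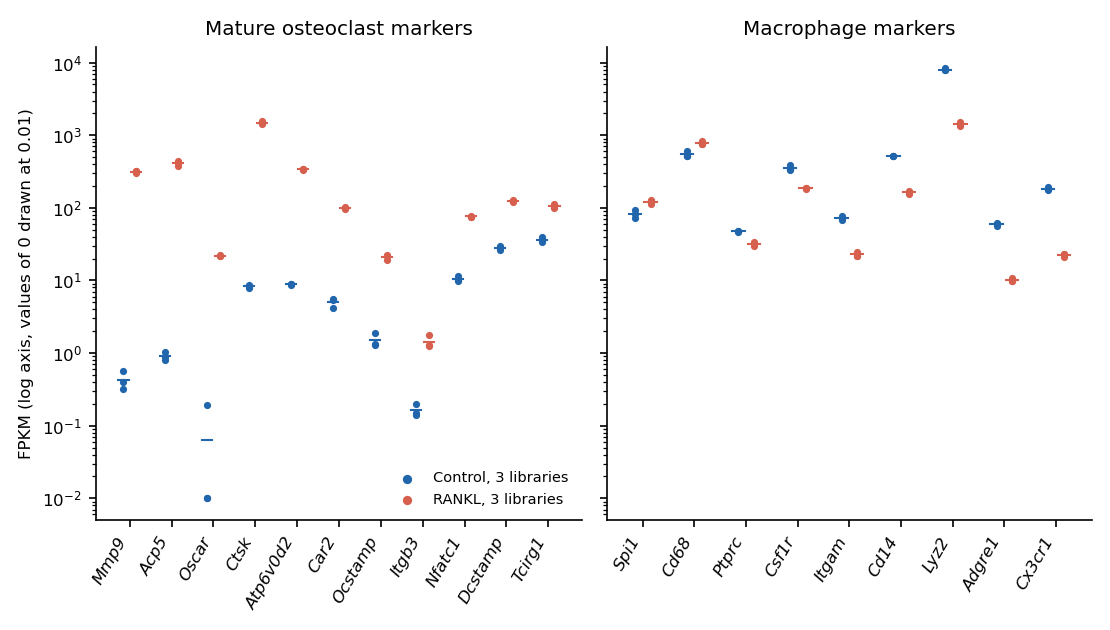
FPKM on a log axis of each tested marker in the 3 Control libraries (blue points) and the 3 RANKL libraries (red points), with a bar at the mean of the group; values of 0 are drawn at 0.01. All 11 osteoclast markers sit higher in every RANKL library than in any Control library, and among the macrophage markers Cd68 and Spi1 are higher in RANKL while the other 7 are lower.

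The proximal promoters of osteoclast markers that rose together are shown because these are the sequences on which the transcription factors described below could act. Of the 11 tested markers, 4 are held in the RefSeq promoter table, which gives 250 bases before and 50 bases after a transcription start in build GRCm38.p6. Most coordinates of the deposited table differ from that build. Where RefSeq lists several starts for a gene, as it does 3 for Acp5 and 3 for Tcirg1, the first was used. Each sequence is written 5′ to 3′ on the strand of its gene, and capitals mark GGAAA, the core of the NFAT motif, or its reverse complement TTTCC. The windows are those of Acp5, which encodes the phosphatase TRAP (chr9:22135697-22135996, minus strand), Oscar, an ITAM-coupled collagen receptor (chr7:3616108-3616407, minus strand), Ctsk, which encodes cathepsin K (chr3:95498960-95499259, plus strand), and Tcirg1, which encodes the a3 subunit of the proton pump (chr19:3907084-3907383, minus strand).
Acp5: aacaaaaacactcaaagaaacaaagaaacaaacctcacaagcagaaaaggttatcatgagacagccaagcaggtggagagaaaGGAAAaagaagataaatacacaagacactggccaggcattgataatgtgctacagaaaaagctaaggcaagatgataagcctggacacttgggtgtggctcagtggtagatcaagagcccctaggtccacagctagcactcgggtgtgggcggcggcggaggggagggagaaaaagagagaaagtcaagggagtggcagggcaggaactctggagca
Oscar: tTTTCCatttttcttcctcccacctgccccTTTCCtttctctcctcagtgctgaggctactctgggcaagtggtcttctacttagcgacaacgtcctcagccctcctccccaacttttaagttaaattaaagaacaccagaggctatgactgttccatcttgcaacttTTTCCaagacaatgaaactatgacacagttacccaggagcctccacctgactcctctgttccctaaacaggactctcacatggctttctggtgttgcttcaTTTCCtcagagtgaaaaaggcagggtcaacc
Ctsk: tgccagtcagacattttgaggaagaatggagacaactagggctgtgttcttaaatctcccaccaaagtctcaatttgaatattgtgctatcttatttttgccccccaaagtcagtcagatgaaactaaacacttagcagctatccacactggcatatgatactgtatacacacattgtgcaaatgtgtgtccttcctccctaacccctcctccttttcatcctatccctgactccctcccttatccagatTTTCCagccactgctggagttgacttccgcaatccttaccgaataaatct
Tcirg1: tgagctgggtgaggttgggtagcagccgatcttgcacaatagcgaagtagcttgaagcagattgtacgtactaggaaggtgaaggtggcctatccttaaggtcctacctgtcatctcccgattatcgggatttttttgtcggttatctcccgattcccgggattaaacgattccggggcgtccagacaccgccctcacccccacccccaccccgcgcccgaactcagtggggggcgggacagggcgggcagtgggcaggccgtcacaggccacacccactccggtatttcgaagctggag

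The NFAT core occurred 4 times in the Oscar window, 1 time each in the Acp5 and Ctsk windows and 0 times in the Tcirg1 window, and the AP-1 motif TGANTCA occurred in 0 of the 4. Both strands were searched here and in the counts that follow. At 5 letters the NFAT core is common, and 61.3% of the 27025 promoters of the table hold it. Among the promoters of genes at least 2-fold higher in RANKL that are in the table, 60.4% of 437 held the NFAT core. For genes at least 2-fold lower it was 65.0% of 554, and for tested genes 59.9% of 8369. The AP-1 motif was in 11.2% of the higher, 7.76% of the lower and 4.91% of the tested promoters, and in 7.93% of all promoters. The core of the interferon-stimulated response element (ISRE) was in 9.75% of the lower, 3.18% of the tested and 3.89% of the higher promoters. The ETS core GAGGAA, which PU.1 can bind, was present in 31.6% of the higher, 34.5% of the lower and 26.6% of the tested promoters. The NF-kB motif GGGNNTTCC was in 7.55%, 7.94% and 7.70%, and TCACGTG, an E-box of MITF and TFE factors, was in 3.89%, 3.97% and 6.60% of them. These shares describe letters in windows, and no test was made of them.

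Stimulation with RANKL changed the level of most tested genes, and most changes were small. The quasi-likelihood test of edgeR, adjusted by Benjamini-Hochberg, called 3278 genes higher in RANKL at an adjusted p below 0.05 (27.3% of those tested) and 3628 lower (30.2%). Of these 6906 genes (57.6%), 3919 changed by less than 1.5-fold. Changes of at least 2-fold were called for 647 higher (5.39%) and 847 lower genes (7.06%), together 1494 (12.5%), and among these the libraries of both groups did not overlap for 640 and 836. Without an overlap of libraries, whatever the p, 3468 genes were higher (28.9%) and 3847 lower (32.1%), together 61% of those tested. The median log2 fold change of all tested genes was -0.03, with quartiles of -0.37 and 0.29. Where a gene overlaps another on the opposite strand its reads cannot be told apart, and among the genes named below this holds for Atp6v0a2, Ccnd1, Cd9, Csf1r, Ctsb, Cxcl16, Gapdh, Irf7, Itgav, Jdp2, Junb, Lamp1, Pdgfb, Pltp, Rn18s-rs5, Serpind1, Slc2a1 and Tk1 beside those marked in the text. The split between higher and lower genes depended on scaling. With TMM factors of 1.02 to 1.03 in Control and 0.959 to 0.963 in RANKL, 47.5% of called genes were higher, and with total counts and no further scaling 2585 were higher and 4415 lower, or 36.9% higher. With only the 6 libraries of Control and RANKL in the fit, 3334 were higher and 3349 lower, or 49.9% higher.

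Among the genes that passed the filter, large rises outnumbered large falls. Fitted changes of at least 16-fold were found for 97 higher and 38 lower genes, and of at least 4-fold for 269 and 260. In 66 of the genes at least 2-fold higher, every Control library had 3 counts or fewer, and in 32 of the genes at least 2-fold lower every RANKL library did, so that their fold is known only as a lower bound, set against 3 counts in each library. With these genes at their bound, 75 rose and 31 fell by at least 16-fold. The FPKM filter drew on all 9 libraries, and those of RANKL + UD received RANKL too. A gene absent in Control could thus pass it through either RANKL group, and a gene absent in RANKL mainly through Control. The part of this filter in the excess of large rises was not tested. Genes with a mean level under 2 FPKM were at least 2-fold higher in 10.4% and lower in 12.8% of 2087, while among the 189 genes over 200 FPKM 7.94% were higher and 4.23% were lower by at least 2-fold. KEGG gives no pathway for 55% of the 2-fold higher and 56% of the 2-fold lower genes, close to the 55.8% of all tested genes.

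**Figure D2:**
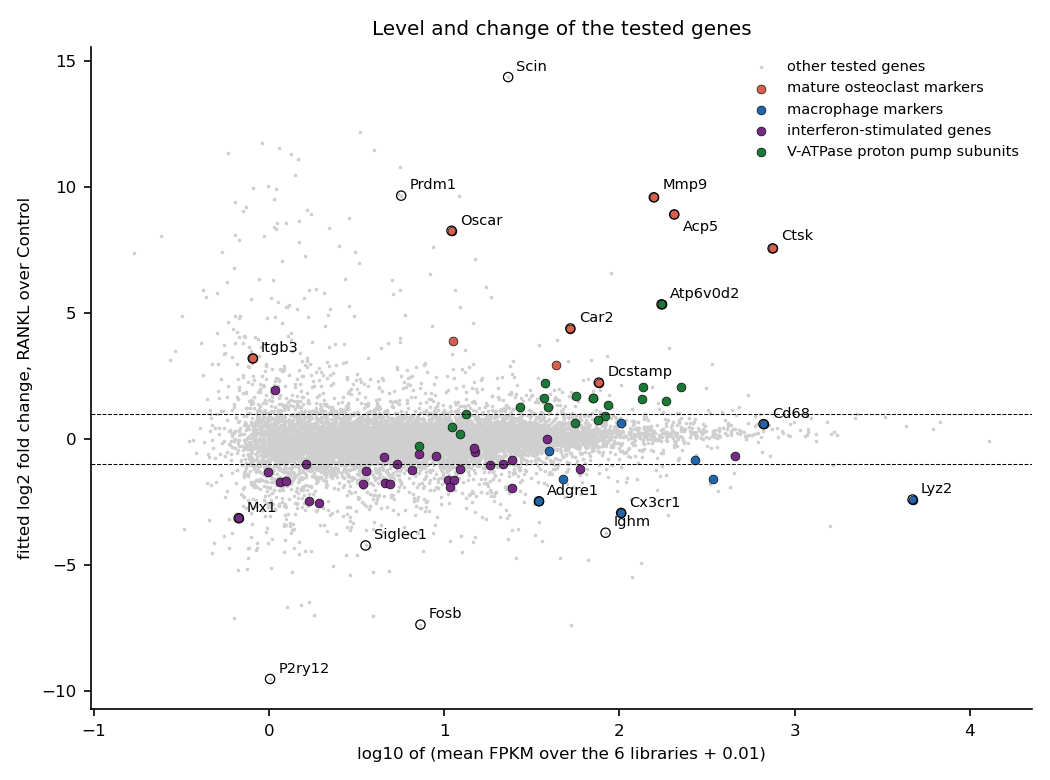
Fitted log2 fold change of RANKL over Control (y axis) against the log10 mean FPKM of the 6 libraries (x axis) for the 11995 tested genes (grey), with 4 gene lists in colour and named genes ringed; dashed lines mark a 2-fold change. Ctsk, Acp5 and Mmp9 combine a level over 100 FPKM with a log2 fold change over 7, Lyz2 is the most abundant macrophage marker and has a log2 fold change of -2.40, and Scin and P2ry12 lie at the extremes, where the fitted value rests on a group at or near 0 counts.

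A set of genes rose from 3 counts or fewer in every Control library. Scin (ENSMUSG00000002565, chromosome 12, 40109768 to 40184227 in the coordinates of the deposited table) encodes adseverin, which severs and caps actin filaments. It had 0 counts in all 3 Control libraries and 2691, 2780 and 2628 counts in the RANKL libraries, with 45.5, 48 and 45.7 FPKM, at least 786-fold higher. Prdm1, which encodes the transcriptional repressor Blimp1, had 3, 0 and 1 counts in Control and 1324, 1148 and 1217 in RANKL, at least 358-fold higher. Both are among the largest rises, a list open only to genes whose libraries did not overlap. Pls1, an actin-bundling plastin, rose at least 246-fold and reached 12.4, 10.2 and 11 FPKM, and Sema7a, a membrane semaphorin, rose at least 202-fold and reached 11.6, 11.2 and 9.71 FPKM.

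Further genes in this group had 0 counts in every Control library. They were Rab15, a small GTPase of endosomes (at least 173-fold higher in RANKL, and on the strand opposite Fntb), Nyap2, a phosphoprotein that binds PI3K (128-fold), Grk3, a kinase of G protein-coupled receptors (112-fold), Rufy4, which acts in autophagy (104-fold), Akap6, an anchor of protein kinase A (96.2-fold), Cd84, an adhesion receptor of the SLAM family (94.2-fold), and Mst1r, a receptor tyrosine kinase for macrophage-stimulating protein (81.9-fold). The same held for Cd200, an immune inhibitory ligand (52.7-fold), Gimap6, a GTPase of immune cells (38.9-fold), and Mycl, a MYC family factor (36.7-fold), each fold being a lower bound. Their levels stayed modest, from 1.15 FPKM for Akap6 to 7.93 FPKM for Rufy4. Ccr3, an eotaxin receptor, had 0, 2 and 0 counts in Control and 353, 369 and 366 in RANKL, at least 106-fold higher, and Serpind1, heparin cofactor II, rose at least 75.9-fold and Cadm2, a cell adhesion molecule, at least 81.1-fold.

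The receptor for RANKL rose, and most NF-kB components changed by less than 2-fold. Of 20 tested genes for RANK, TRAF and NF-kB components, 12 were higher, 6 were lower and 2 did not pass, 1 in each direction by at least 2-fold, with a median log2 fold change of 0.30 against -0.03 for all genes. Over all tested genes 27.3% were called higher and 30.2% lower, and 5.39% and 7.06% by at least 2-fold. Counts in this list and the later ones are to be read against these shares. Tnfrsf11a, which encodes RANK itself, had 17.7, 18.8 and 15.6 FPKM in the Control libraries and 29.7, 31.7 and 31.2 FPKM in the RANKL libraries. All RANKL libraries were higher, with a log2 fold change of 0.92 ± 0.06 (SE). Traf1, a signalling adaptor induced by NF-kB, rose from 3 ± 0.106 to 7.08 ± 0.373 FPKM, and Nfkb2, the p100 precursor of the noncanonical route, rose from 12.5 ± 0.267 to 23 ± 0.557 FPKM, on the strand opposite Psd. Inhibitors of the pathway rose as well, with Nfkbia, which encodes IκBα, at 63.7 ± 6.8 FPKM in Control and 104 ± 4.49 FPKM in RANKL, and Tnfaip3, which encodes the deubiquitinase A20, at 6.62 ± 0.219 FPKM in Control and 11.3 ± 0.52 FPKM in RANKL. Map3k14, the NF-kB-inducing kinase NIK, fell from 2.59 ± 0.316 to 1.21 ± 0.108 FPKM. Traf6, the adaptor on which RANK signalling depends, had a log2 fold change of only 0.22.

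Transcription factors moved in opposite directions within the AP-1 family. Over the list of 20 tested osteoclast transcription factors, 8 were higher and 9 were lower and the median was -0.06, and over the 16 alternative settings its median lay between -0.15 and 0.00. Nfatc1 had 9.77, 10.3 and 11.5 FPKM in the Control libraries and 74.9, 77.5 and 76 FPKM in the RANKL libraries. Its libraries were tightly grouped in RANKL and 7.7-fold above Control. Fosl2, the AP-1 member Fra-2, had 5.37, 5.51 and 4.55 FPKM in the Control libraries and 66.7, 63.9 and 62.2 FPKM in the RANKL libraries, and Jdp2, an AP-1 factor that dimerises with Jun, had 13.5, 15.2 and 15.6 FPKM in the Control libraries and 116, 122 and 129.6 FPKM in the RANKL libraries. Both rose, by 3.73 ± 0.06 and 3.14 ± 0.06 on the log2 scale (SE). The AP-1 genes that are known for transient induction were lower at this time. Fos had 190.1, 199 and 199 FPKM in the Control libraries and 33, 36.5 and 38.2 FPKM in the RANKL libraries, and Fosb had 14.6, 14.7 and 14.4 FPKM in the Control libraries and 0.05, 0.09 and 0.11 FPKM in the RANKL libraries. No libraries overlapped, and the log2 fold changes were -2.36 ± 0.06 and -7.36 ± 0.19. Jun fell from 36.2 ± 2.39 to 8.7 ± 0.221 FPKM, and Junb fell only from 64.8 to 51.6 FPKM. Myc, a driver of growth and metabolism, had 0.83, 0.73 and 0.74 FPKM in the Control libraries and 36.1, 35.2 and 37.5 FPKM in the RANKL libraries, a rise of 5.65 ± 0.10 on the log2 scale (adjusted p = 1.31e-20 by edgeR's quasi-likelihood test). Mitf, a factor of lysosomal and osteoclast genes, rose from 27.2 ± 0.767 to 43.9 ± 1.29 FPKM, and its relatives Tfeb and Tfe3 fell, by 0.88 and 0.29 on the log2 scale. Spi1, which encodes PU.1, rose from 82.6 ± 10.4 to 121 ± 7.57 FPKM.

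Genes listed as repressors of NFATc1 mostly fell. Of 9 tested members of this list, 7 were lower and 2 were higher, 3 of them lower by at least 2-fold, with a median of -0.49. Irf8, an interferon regulatory factor, had 13, 13.9 and 15.6 FPKM in the Control libraries and 2.92, 3.24 and 3.68 FPKM in the RANKL libraries. Each RANKL library was lower than each Control library, with a log2 fold change of -2.03 ± 0.09 (SE). Id3, an inhibitor of basic helix-loop-helix factors, fell from 2.33 ± 0.544 to 0.53 ± 0.0529 FPKM, and Bcl6, a repressor that Blimp1 opposes, fell from 12.1 ± 0.249 to 7.92 ± 0.429 FPKM. Id2 and Irf4 were the members that rose, by 0.97 and 0.44 on the log2 scale. The role of each member in these cells was not tested, and Irf4 was not established here as a repressor.

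Of the enzymes that digest the matrix, Ctsk, Acp5 and Mmp9 rose from low levels. Ctsk had 7.85, 8.74 and 8.42 FPKM in the Control libraries and 1456, 1443 and 1573 FPKM in the RANKL libraries. It was the only gene outside the mitochondrial genome, ribosomal RNA and elongation factor genes among the 5 with the largest gain in share of the transcript pool. Acp5 had 0.88, 0.8 and 1.05 FPKM in the Control libraries and 381, 413 and 437 FPKM in the RANKL libraries, and Mmp9, a gelatinase, had 0.57, 0.4 and 0.32 FPKM in the Control libraries and 298, 326 and 319 FPKM in the RANKL libraries. All RANKL libraries exceeded all Control libraries by more than 100-fold for these 3 genes, and the log2 fold changes were 7.57 ± 0.07, 8.91 ± 0.09 and 9.59 ± 0.10 (SE). Other proteases of the list were mixed. Of the 14 tested genes of matrix degradation, 6 were higher and 6 lower, 5 and 2 by at least 2-fold, with a median of 0.22. Ctsl and Ctss, cathepsins of macrophage lysosomes, fell from 112 ± 0.5 to 41.7 ± 1.3 FPKM and from 783 ± 11.5 to 513 ± 13.2 FPKM, and Ctsc, dipeptidyl peptidase I, fell from 19.9 ± 0.616 to 5.83 ± 0.0839 FPKM. Ctsb, cathepsin B, stood at 311 ± 14 FPKM in Control and 314 ± 7.18 FPKM in RANKL, and its log2 fold change of 0.10 did not pass. Among inhibitors, Cstb, the cytosolic cystatin B, rose from 129 ± 4.19 to 499 ± 37 FPKM, and Cst3, the secreted cystatin C, fell from 541 ± 7.95 to 329 ± 15.1 FPKM.

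The proton pump rose in nearly every subunit. Of 19 tested V-ATPase subunits, 18 were higher and 1 was lower, 12 of them higher by at least 2-fold, with a median of 1.35. Atp6v0d2, the osteoclast isoform of the d subunit, which also takes part in fusion, had 9.01, 8.89 and 8.66 FPKM in the Control libraries and 339.7, 336 and 342 FPKM in the RANKL libraries. Its rise of 5.35 ± 0.06 on the log2 scale exceeded that of every other subunit, the next being 2.23 for Atp6v1d, and the other d isoform, Atp6v0d1, rose only from 45.1 ± 4.11 to 65.9 ± 4.85 FPKM. Tcirg1, whose a3 protein carries the pump to the ruffled border, rose from 36.5 ± 2.56 to 105 ± 6.76 FPKM, while the other a isoforms Atp6v0a1 and Atp6v0a2 rose by 0.47 and 0.19 on the log2 scale. The cytosolic V1 sector, which hydrolyses ATP, rose from 0.99 for Atp6v1h to 2.23 for Atp6v1d, and its catalytic subunit Atp6v1a had 90.9, 90.3 and 92.7 FPKM in the Control libraries and 361, 361 and 347 FPKM in the RANKL libraries. In RANKL these 8 V1 genes stood between 17.4 and 356 FPKM. Atp6v0e2 fell by 0.28 on the log2 scale, whereas its paralog Atp6v0e rose by 1.64.

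Genes that feed and balance the pump rose with it. Of 10 tested genes of acid and chloride transport, 8 were higher, 4 of them by at least 2-fold, and 1 was lower, with a median of 0.73. Car2, carbonic anhydrase II, which supplies protons, had 4.22, 5.52 and 5.44 FPKM in the Control libraries and 97.5, 99.4 and 103 FPKM in the RANKL libraries. Clcn7, the chloride-proton exchanger of the ruffled border, had 8.81, 8.16 and 8.46 FPKM in the Control libraries and 32.2, 32.1 and 32.3 FPKM in the RANKL libraries, and Slc4a2, the chloride-bicarbonate exchanger that disposes of base, rose from 5.61 ± 0.269 to 26.8 ± 0.914 FPKM, on the strand opposite Fastk. Slc9b2, a sodium-proton exchanger, had 0, 4 and 5 counts in Control and 2599, 2647 and 2573 in RANKL. All RANKL libraries lay above Control in each of these genes, by 4.39 ± 0.07, 2.01 ± 0.05, 2.34 ± 0.05 and 9.64 ± 0.18 on the log2 scale. Ostm1, the partner of Clcn7, rose by only 0.48, and Rab3d, a GTPase of secretory vesicles, fell from 8.36 ± 0.755 to 4.35 ± 0.25 FPKM.

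**Figure D3:**
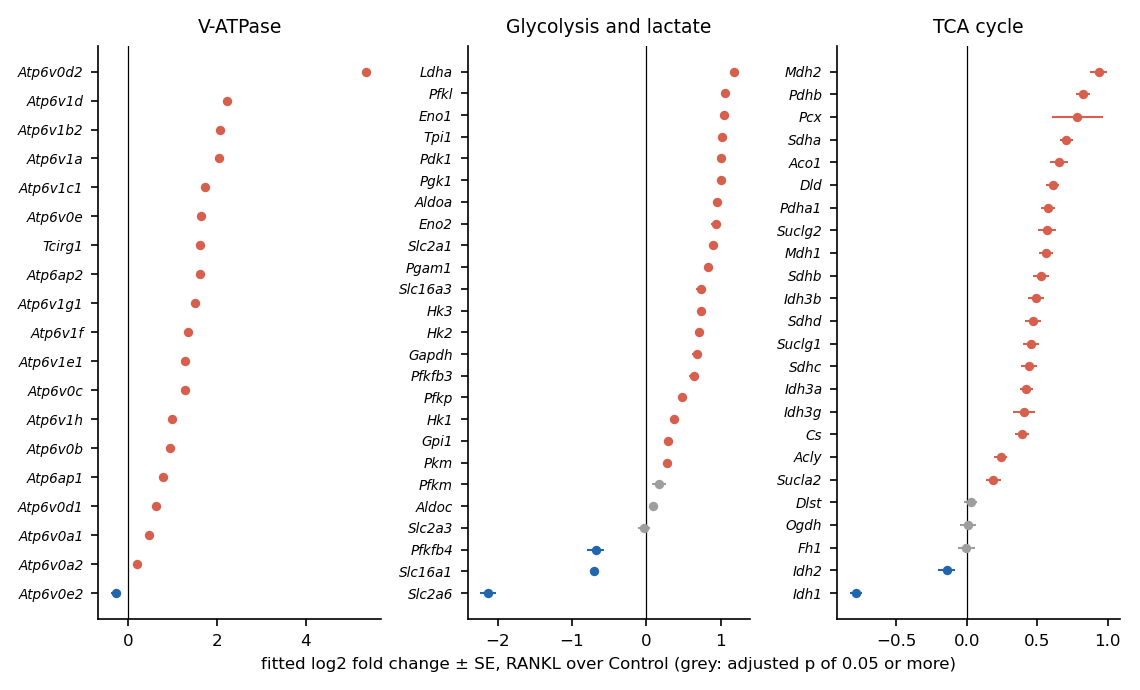
Fitted log2 fold change with its SE (x axis) of the tested V-ATPase subunits, glycolysis and lactate genes and 24 of the 25 tested TCA cycle enzymes; the 3 panels have different x ranges, and grey points did not pass an adjusted p of 0.05. In the V-ATPase panel 18 of 19 subunits lie to the right of 0 with Atp6v0d2 far from the rest, in the glycolysis panel 19 of 25 genes are higher and Slc2a6 is the lowest, and in the TCA panel 19 of the 24 drawn are higher by at most 0.93.

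Fusion genes were more often higher than lower. Of 14 tested, 8 were higher and 3 lower, 4 of them higher by at least 2-fold, with a median of 0.40. Dcstamp, the transmembrane protein required for fusion, had 28.1, 29.6 and 26.4 FPKM in the Control libraries and 122, 126 and 127 FPKM in the RANKL libraries, and its relative Ocstamp had 1.3, 1.33 and 1.89 FPKM in the Control libraries and 19.4, 22.3 and 21.7 FPKM in the RANKL libraries. Dcstamp was thus already present in Control, and its rise of 2.24 ± 0.05 on the log2 scale was smaller than that of 3.91 ± 0.11 for Ocstamp. Cd9, a tetraspanin, rose from 211 ± 6.98 to 322 ± 13.7 FPKM, and Cd81, another tetraspanin, fell from 16.7 ± 0.778 to 10.9 ± 0.953 FPKM. For Cd47, a membrane protein known to assist fusion, a change of -0.10 did not pass.

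Costimulation through ITAM receptors was not raised as a group. Of 15 tested genes, 6 were higher and 8 lower, and the median was -0.31. Oscar was the only member higher by at least 2-fold, with 0, 7 and 0 counts in the Control libraries and 798, 780 and 785 in the RANKL libraries, or 0.0633 ± 0.11 FPKM in Control and 22 ± 0.161 FPKM in RANKL. Both adaptor genes were lower, Tyrobp, which encodes DAP12, at 271 ± 9.33 FPKM in Control and 187 ± 18.6 FPKM in RANKL, and Fcer1g, which encodes FcRγ, at 74.6 ± 5.23 FPKM in Control and 47.4 ± 3.02 FPKM in RANKL. Trem2, a DAP12-coupled receptor, fell from 35.5 ± 0.505 to 20.3 ± 1.69 FPKM. Downstream, Syk, the kinase that ITAM motifs recruit, rose from 9.25 ± 0.383 to 17 ± 0.117 FPKM, and Plcg2, the phospholipase that releases calcium, fell from 39.5 ± 3.16 to 23.8 ± 0.569 FPKM. Siglec15, a DAP12-coupled receptor of osteoclasts in the Siglec family, had 4, 3 and 4 counts in Control and 369, 411 and 329 in RANKL. Of the 16 tested calcium store and calcineurin genes 6 were higher and 5 lower, with a median of 0.09, and only Rcan1, a calcineurin regulator induced by NFAT, passed 2-fold, with 9.58, 9.23 and 8.76 FPKM in the Control libraries and 26.4, 28.5 and 29.7 FPKM in the RANKL libraries.

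Attachment and the actin ring gained a set of specific components. Of 21 tested integrin and podosome genes 13 were higher and 6 lower, 7 and 1 by at least 2-fold, with a median of 0.20. Src, the tyrosine kinase that organises the ruffled border, had 0.39, 0.75 and 0.49 FPKM in the Control libraries and 32.4, 36 and 33.6 FPKM in the RANKL libraries, a rise of 6.02 ± 0.11 on the log2 scale. Itgb3, the integrin β3 chain of the vitronectin receptor, had 0.14, 0.15 and 0.2 FPKM in the Control libraries and 1.75, 1.29 and 1.27 FPKM in the RANKL libraries, and its partner Itgav had 13.4, 13.6 and 14.1 FPKM in the Control libraries and 66, 63.4 and 57.5 FPKM in the RANKL libraries. The level of Itgb3 stayed far below that of Itgav in every library. Itgb5, which encodes another β partner of αv, fell from 13.4 ± 0.955 to 2.26 ± 0.114 FPKM. Dock5, an exchange factor for Rac, rose from 6.63 ± 0.0252 to 33.4 ± 2.18 FPKM, Actn1, an actin crosslinker, rose from 13.4 ± 0.314 to 48.2 ± 2.02 FPKM, and Gsn, which encodes gelsolin, rose from 106 ± 7.85 to 230.5 ± 10.2 FPKM. Ptk2b, the adhesion kinase PYK2, fell from 20.7 ± 0.668 to 11.6 ± 0.771 FPKM.

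Of 16 listed signals that osteoclasts send to other cells 6 were tested, and 2 were higher and 3 lower, with a median of -0.88. Sema4d, a semaphorin that restrains osteoblasts, rose from 31.9 ± 0.675 to 61.7 ± 0.761 FPKM, and Pdgfb, a growth factor for mesenchymal cells, rose from 14.4 ± 0.911 to 29.8 ± 2.86 FPKM. Igf1, an osteoblast growth factor that macrophages also make, fell from 11.6 ± 0.363 to 0.81 ± 0.0361 FPKM, and C3 and Cxcl16, a complement factor and a membrane chemokine, fell from 8.78 ± 0.414 to 2.2 ± 0.229 FPKM and from 41.2 ± 1.71 to 4.49 ± 0.27 FPKM. Ccr1, a chemokine receptor of osteoclast precursors, had 6.29, 5.83 and 4.8 FPKM in the Control libraries and 84, 84.1 and 79.2 FPKM in the RANKL libraries, and its ligand Ccl9 had 265, 264 and 254 FPKM in the Control libraries and 828, 809 and 857 FPKM in the RANKL libraries. Both rose without overlap, by 3.95 ± 0.07 and 1.76 ± 0.04 on the log2 scale. The chemokine list had 4 higher and 7 lower genes, and its median of -0.01 over 16 tested genes was above 0 in 9 of the 16 alternative settings. Cxcl2, a neutrophil chemokine, fell from 42.1 ± 4.47 to 4.92 ± 0.547 FPKM.

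The macrophage side of the comparison was dominated by losses. Among 29 tested surface markers and scavenger receptors, 22 were lower and 6 were higher, 15 and 5 by at least 2-fold, with a median of -1.28. Lyz2, which encodes lysozyme, had 7882, 7818 and 8299 FPKM in the Control libraries and 1415, 1357 and 1521 FPKM in the RANKL libraries, and its neighbour Lyz1, whose reads may partly be shared with it, had 2896, 2907 and 2974 FPKM in the Control libraries and 248, 248 and 269.8 FPKM in the RANKL libraries. These were the 2 largest losses of the transcript pool, and Lyz2 remained above Lyz1 in every library. Adgre1, which encodes F4/80, had 55.9, 60.8 and 61.6 FPKM in the Control libraries and 9.75, 10.8 and 9.8 FPKM in the RANKL libraries. Cx3cr1, the fractalkine receptor, had 174, 179.9 and 193 FPKM in the Control libraries and 23.1, 23.5 and 21.1 FPKM in the RANKL libraries, with genes on the opposite strand. Siglec1, a sialic acid receptor of tissue macrophages, had 6.37, 6.55 and 7.38 FPKM in the Control libraries and 0.3, 0.37 and 0.36 FPKM in the RANKL libraries. All of these lay lower in every RANKL library, with log2 fold changes of -2.40 ± 0.05, -3.43 ± 0.05, -2.46 ± 0.07, -2.93 ± 0.06 and -4.22 ± 0.13 (SE). Csf1r, the receptor for M-CSF that osteoclasts also need, fell less, from 353 ± 27.1 to 185 ± 4.21 FPKM.

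Some macrophage receptors went the other way. Axl, a receptor for apoptotic cells, had 1.75, 1.31 and 1.97 FPKM in the Control libraries and 11, 10.2 and 10.6 FPKM in the RANKL libraries, a rise of 2.76 ± 0.11 on the log2 scale. Clec4a2 and Clec4n, C-type lectins, rose from 5.39 ± 0.54 to 43.9 ± 1.28 FPKM and from 2.45 ± 0.636 to 10.4 ± 0.632 FPKM, whereas their cluster neighbours Clec4a1, Clec4d and Clec4e fell by 2.35, 1.38 and 1.28 on the log2 scale. Cd68, a lysosomal membrane protein, rose from 549 ± 43.4 to 782 ± 41.3 FPKM, and Cd80, a costimulatory ligand, rose from 7.89 ± 0.492 to 18.3 ± 0.769 FPKM, whereas Cd86, the other ligand of Cd28, had 2.53, 2.25 and 1.88 FPKM in the Control libraries and 0.24, 0.1 and 0.24 FPKM in the RANKL libraries and fell.

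Sensors of microbes fell broadly. All 9 tested Toll-like receptors were lower, 7 by at least 2-fold, with a median of -1.54. Tlr2, a receptor for bacterial lipopeptides, had 159, 153 and 166 FPKM in the Control libraries and 34.8, 37.8 and 35 FPKM in the RANKL libraries. Tlr7, a receptor for single-stranded RNA in endosomes, had 99.9, 95.6 and 103 FPKM in the Control libraries and 21.5, 21.9 and 19.1 FPKM in the RANKL libraries, and Tlr8 had 6.01, 6.1 and 6.31 FPKM in the Control libraries and 0.27, 0.26 and 0.19 FPKM in the RANKL libraries. The smallest fall was that of Tlr4, the endotoxin receptor, from 32.2 ± 1.25 to 21.1 ± 2.97 FPKM. In the wider list of 22 receptors and adaptors 18 were lower and 2 higher, with a median of -0.75, and Cd14, the coreceptor for endotoxin, fell from 522 ± 2.17 to 164 ± 6.6 FPKM. The 2 that rose were Ly96 and Cd180, by 0.60 and 0.25 on the log2 scale. Of 6 tested Fc receptor genes 4 were lower and 0 higher, with a median of -0.70. Fcgr1, the high-affinity IgG receptor, had 27.1, 27.9 and 29.7 FPKM in the Control libraries and 1.82, 1.66 and 1.85 FPKM in the RANKL libraries.

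Inflammatory mediators were lower with few exceptions. Of 15 tested, 13 were lower and 2 higher, with a median of -1.21. Tnf had 57.4, 61.9 and 62.3 FPKM in the Control libraries and 21.1, 20.6 and 23.1 FPKM in the RANKL libraries, and Ptgs2, the inducible cyclooxygenase, had 11.1, 10.8 and 10.8 FPKM in the Control libraries and 0.83, 1.12 and 0.77 FPKM in the RANKL libraries. Il10ra, which encodes a chain of the IL-10 receptor and overlaps Gm20612, fell from 37.4 ± 2.15 to 4.16 ± 0.173 FPKM. The genes that rose were Il1rn, which encodes the IL-1 receptor antagonist, from 10.8 ± 0.483 to 37.5 ± 1.28 FPKM, and Nos2, inducible nitric oxide synthase, from 0.483 ± 0.0351 to 2.4 ± 0.335 FPKM. Among 7 tested NADPH oxidase genes 4 were higher and 3 lower, with a median of 0.13. Cybb, the catalytic subunit of the phagocyte oxidase, had 599.5, 594 and 588 FPKM in the Control libraries and 137, 136 and 126 FPKM in the RANKL libraries, and Nox1, the catalytic subunit of another oxidase, had 0.11, 0.14 and 0.19 FPKM in the Control libraries and 4.25, 4.38 and 3.89 FPKM in the RANKL libraries, on the strand opposite Cstf2. They moved in opposite directions, by -2.07 ± 0.05 and 4.93 ± 0.22 on the log2 scale.

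The interferon signature of the line was lower nearly throughout. Of 30 tested interferon-stimulated genes 28 were lower, 19 by at least 2-fold, and 1 was higher, with a median of -1.21. Ifi44 had 38.1, 39.2 and 40.0 FPKM in the Control libraries and 9.63, 9.37 and 9.67 FPKM in the RANKL libraries, and Mx1, an antiviral GTPase, had 1.14, 1.4 and 1.06 FPKM in the Control libraries and 0.12, 0.09 and 0.17 FPKM in the RANKL libraries. Usp18, which removes ISG15 from proteins, fell from 17.4 ± 1.09 to 5.41 ± 0.701 FPKM, and Irf7, a master regulator of interferon genes, fell from 16.2 ± 1.38 to 4.93 ± 0.217 FPKM. Irf9, which carries the interferon signal to the nucleus, fell by 0.68 on the log2 scale. Gbp7, a guanylate-binding protein, was the gene that rose, from 0.463 ± 0.0896 to 1.7 ± 0.108 FPKM.

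Genes of antigen presentation were also mostly lower. For MHC class I, 16 of 21 tested genes were lower and 2 higher, with a median of -0.67. B2m, the light chain shared by class I molecules, had 914, 868 and 944 FPKM in the Control libraries and 523, 532 and 555 FPKM in the RANKL libraries, and Nlrc5, the transactivator of class I genes, fell from 4.97 ± 0.375 to 1.5 ± 0.304 FPKM. The members that rose, Calr and Pdia3, are general chaperones of the endoplasmic reticulum. For MHC class II 5 of 8 listed genes were tested, and 4 were lower, with a median of -1.46. Cd74, the invariant chain, fell from 284 ± 41.6 to 149 ± 10.1 FPKM, and H2-Eb1 rose by 0.37. Among 16 tested genes whose symbol begins with H2-, many of them near-identical copies whose reads may be shared, 14 were lower and 1 higher. Complement and plasminogen genes were divided, with 5 of 9 lower and 3 higher and a median of -0.63. Plau, the urokinase protease, had 38.5, 41.1 and 39.2 FPKM in the Control libraries and 166, 166 and 165 FPKM in the RANKL libraries and rose, and C5ar1, the C5a receptor, had 25.8, 26.2 and 28 FPKM in the Control libraries and 3.12, 3.34 and 3.79 FPKM in the RANKL libraries and fell.

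The largest falls included genes of other functions. P2ry12, an ADP receptor known from microglia and platelets, had 74, 104 and 91 counts in Control and 0 counts in every RANKL library, at least 30.8-fold lower. Cbr2, a carbonyl reductase, was at least 62-fold lower and Ms4a4c, a tetraspan membrane protein, at least 26.3-fold lower. Lifr, the receptor of leukaemia inhibitory factor, Cmah, which hydroxylates sialic acid, and Cd28, a costimulatory receptor of T cells, fell from 1.23 ± 0.147 to 0.00667 ± 0.0115 FPKM, from 3.35 ± 0.165 to 0.0333 ± 0.0153 FPKM and from 5.69 ± 0.515 to 0.127 ± 0.0153 FPKM. Jam2, a junctional adhesion molecule, and Hpgd, which inactivates prostaglandins, fell from 2.63 ± 0.147 to 0.0633 ± 0.0289 FPKM and from 7.67 ± 0.321 to 0.183 ± 0.143 FPKM. Serpinb10, a serpin of myeloid cells, fell from 9.45 ± 0.261 to 0.237 ± 0.186 FPKM. Libraries that did not overlap were a condition for listing these 9 genes.

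Part of the list of largest falls consisted of the immunoglobulin heavy chain locus. Ighm had 157, 144 and 166 FPKM in the Control libraries and 9.96, 11.4 and 12.2 FPKM in the RANKL libraries, and fell by 3.71 on the log2 scale (SE 0.07, adjusted p = 7.29e-20 by edgeR). Of the other tested genes of the locus, Ighj1, Ighj2, Ighj3, Ighj4, Ighd and Ighd4-1 all fell, and these 6 were among the 20 largest falls of all genes. The joining segments are short, so their high FPKM rests on few reads. For Ighj1, 231 FPKM in Control came from 219, 249 and 178 counts, and RANKL libraries had 4, 3 and 8. All heavy chain genes together took 0.0345 ± 0.0014% of counts in Control and 0.00226 ± 0.00018% in RANKL (SD, n = 3 each). The B-cell markers Ms4a1 and Pax5 were listed at 0, as given above.

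Most listed proliferation genes fell, by modest amounts. The mitosis list also holds cyclins and cell cycle inhibitors, among them Cdkn1b, Cdkn2c and Cdkn2d. Of 33 tested mitosis genes 30 were lower, 7 by at least 2-fold, and 2 higher, with a median of -0.79. Mki67, the proliferation antigen, had 103, 100.3 and 113 FPKM in the Control libraries and 51, 52.2 and 42.4 FPKM in the RANKL libraries, and Aurkb, a kinase of chromosome segregation, fell from 19.6 ± 1.25 to 7.7 ± 0.404 FPKM. Of 30 tested DNA replication genes 25 were lower, 0 by 2-fold, and 1, the licensing factor Cdt1, was higher, with a median of -0.38. Mcm3 and Pcna, parts of the replicative helicase complex and the sliding clamp, fell by 0.52 and 0.22 on the log2 scale. Ccnd1, cyclin D1, stood at 90.4 ± 6.04 FPKM in Control and 74.7 ± 3.22 FPKM in RANKL and fell by 0.19 on the log2 scale, and Cdkn1b, the cell cycle inhibitor p27, rose by 0.20 with overlapping libraries. The inhibitors Cdkn2c and Cdkn2d fell, by 0.92 and 1.23. The wider KEGG pathway Cell cycle was less uniform, with 56 of 127 tested genes lower and 27 higher and a median of -0.12.

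Transcript levels of energy metabolism genes rose in several compartments. Of 25 tested glycolysis and lactate genes 19 were higher, 6 by at least 2-fold, and 3 were lower, with a median of 0.72. Ldha, lactate dehydrogenase A, had 272, 268 and 299 FPKM in the Control libraries and 563, 599 and 622 FPKM in the RANKL libraries, and Pgk1, phosphoglycerate kinase, had 608, 599.9 and 598 FPKM in the Control libraries and 1100.0, 1135 and 1172 FPKM in the RANKL libraries. Slc2a1, the glucose transporter GLUT1, rose from 34.8 ± 1.93 to 61.2 ± 3.71 FPKM, and Slc2a6, a lysosomal hexose transporter, fell from 20.8 ± 1.49 to 4.46 ± 0.706 FPKM. The value of Gapdh, the enzyme between aldolase and Pgk1, is uncertain. Gapdh itself was listed at only 16.2 ± 1.24 FPKM in Control and 24.4 ± 1.02 FPKM in RANKL, while Gm13394, a predicted gene of its pathway annotation, held 846 ± 46.1 FPKM in Control and 1502 ± 105 FPKM in RANKL. How the reads were shared between Gapdh and its copies was not tested. Both rose, by 0.68 and 0.92 on the log2 scale.

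Transcript levels of tricarboxylic acid cycle enzymes rose in smaller steps. Of 25 tested enzymes 20 were higher, 0 by 2-fold, and 2 lower, with a median of 0.47. Sdha, a subunit of succinate dehydrogenase, had 56, 59.2 and 55.8 FPKM in the Control libraries and 84.8, 87.2 and 90.8 FPKM in the RANKL libraries, a rise of 0.71 ± 0.05 on the log2 scale (SE). Idh1, the cytosolic isocitrate dehydrogenase, fell from 128 ± 3.18 to 70.0 ± 0.555 FPKM. Creatine metabolism had a median of 2.37 over 5 tested genes, of which 3 were higher and 1 lower. Ckb, brain-type creatine kinase, had 19.8, 21.3 and 26.6 FPKM in the Control libraries and 100.3, 116 and 113 FPKM in the RANKL libraries, and Slc6a8, the creatine transporter, had 1.57, 2.44 and 2.07 FPKM in the Control libraries and 19.1, 20.5 and 21 FPKM in the RANKL libraries. Ckmt1, the mitochondrial creatine kinase, had 0, 0 and 0 counts in Control and 67, 71 and 67 in RANKL, at least 19.9-fold higher, while Gatm, which makes the creatine precursor, fell from 49.1 ± 2.57 to 18 ± 1.07 FPKM.

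Transcripts of the mitochondrial genome were higher or did not pass. Of 17 tested, 10 were higher and 0 lower, with a median of 0.68. Some that did not pass had few reads, such as mt-Nd4l with 15, 8 and 9 counts in Control and 12, 25 and 18 in RANKL. How reads were shared with any copies of these genes elsewhere was not tested. mt-Nd2, a subunit of complex I, had 1624, 1506 and 1670.1 FPKM in the Control libraries and 2954, 2841 and 3117 FPKM in the RANKL libraries, and mt-Cytb, cytochrome b, had 5516, 5231 and 5534 FPKM in the Control libraries and 8137, 7826 and 8324 FPKM in the RANKL libraries. For mt-Co1, cytochrome oxidase subunit 1 and the most abundant of them, values of 13649.8, 13014 and 14430.5 FPKM in the Control libraries and 12107, 11973 and 12261 FPKM in the RANKL libraries gave a log2 fold change of -0.09 that did not pass (adjusted p = 0.0777 by edgeR). Under some alternatives mt-Co1 passed as lower, for example at -0.18 with total counts and no further scaling. All mitochondrial genes took 3.86 ± 0.18% of counts in Control and 4.58 ± 0.12% in RANKL, and the ribosomal RNA gene Rn18s-rs5 took 0.446 ± 0.056% and 0.772 ± 0.128% (SD, n = 3 each). The libraries were poly(A)-selected, and the part of these shares in the results on mitochondrial transcripts was not tested.

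Other metabolic lists changed little. Of 23 tested cholesterol synthesis genes 12 were lower and 0 higher, with a median of -0.20, and Dhcr7, the last reductase of the pathway, was the only one past 2-fold, from 8.63 ± 1.26 to 3.43 ± 0.414 FPKM. Of 19 LXR target and fatty acid genes 11 were lower and 6 higher, with a median of -0.28. Scd1 and Elovl6, a desaturase and an elongase, fell from 60.2 ± 0.611 to 25.3 ± 0.73 FPKM and from 12.3 ± 0.107 to 4.88 ± 0.19 FPKM, while Pltp, phospholipid transfer protein, rose from 19.8 ± 0.851 to 36.1 ± 2.28 FPKM. Of 19 pyrimidine enzymes 9 were lower and 2 higher, with a median of -0.21. Cmpk2, a mitochondrial kinase that interferon also induces, and Tk1, thymidine kinase, fell from 5.99 ± 0.618 to 1.3 ± 0.201 FPKM and from 14 ± 0.806 to 6.12 ± 0.245 FPKM, and Dhodh, the mitochondrial step of pyrimidine synthesis, stood at 1.8 ± 0.132 FPKM in Control and 1.39 ± 0.117 FPKM in RANKL and did not pass. Serine and one-carbon enzymes were 5 higher and 5 lower of 13, with a median of 0.02 that turned below 0 in 6 of the 16 alternative settings. NRF2 antioxidant genes were 4 higher and 3 lower of 14, with a median of 0.11, and Hmox1, heme oxygenase 1, had a log2 fold change of 0.12 that did not pass.

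Lysosomal genes were rearranged rather than raised together. Of 26 tested MiT/TFE and lysosomal membrane genes 13 were higher and 8 lower, 4 and 1 by at least 2-fold, with a median of 0.10. Gpnmb, a glycoprotein of MITF targets, rose from 145 ± 2.22 to 283 ± 3.02 FPKM, and Npc2, a cholesterol carrier, rose from 74.4 ± 5.64 to 162 ± 9.64 FPKM. The abundant membrane proteins Lamp1 and Lamp2 fell by 0.36 and 0.45 on the log2 scale, and Man2b1, the lysosomal α-mannosidase, fell from 17.5 ± 1.19 to 6.56 ± 0.367 FPKM.

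**Figure D4:**
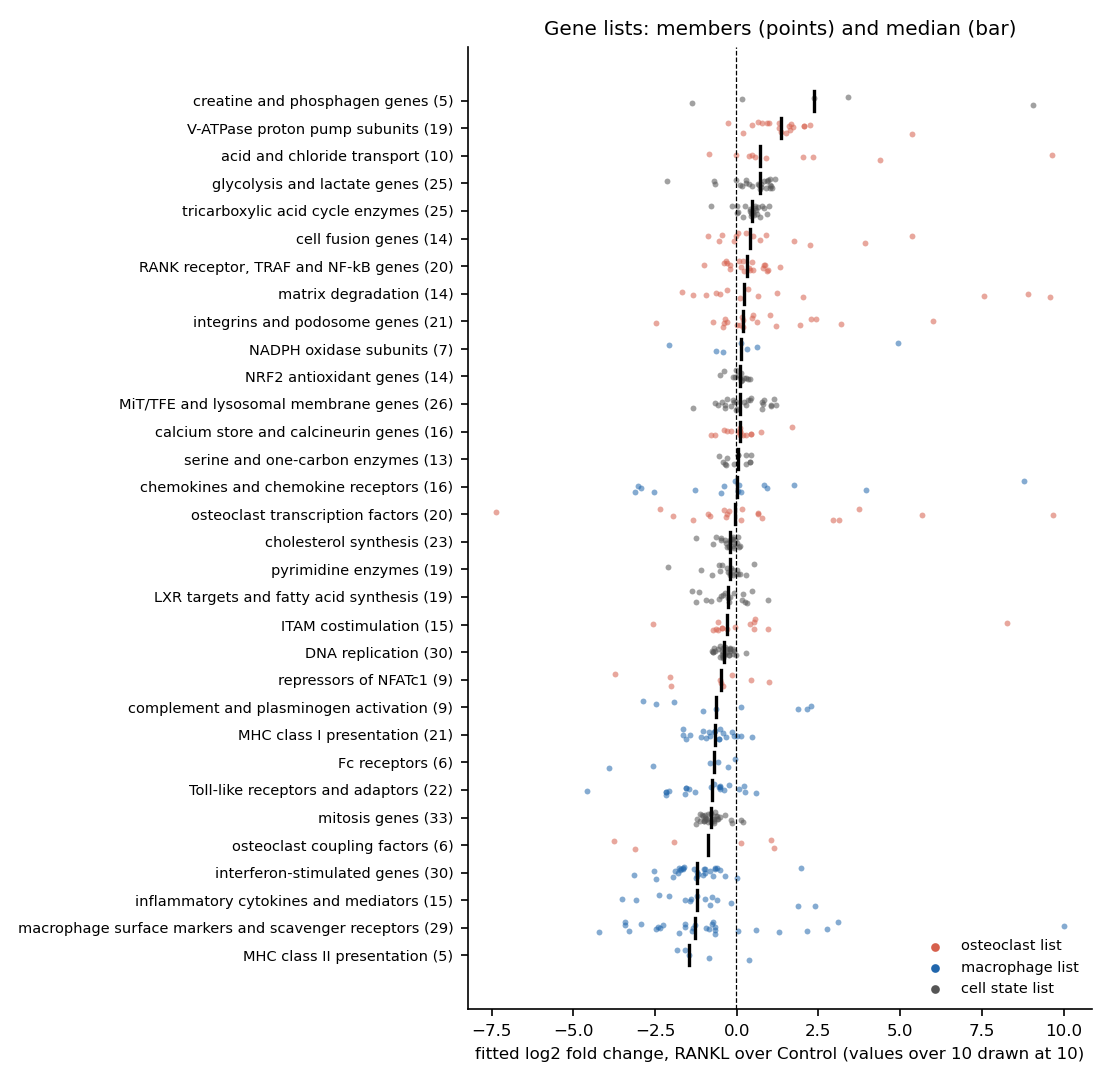
Fitted log2 fold changes of the tested members (points, jittered in height) and the median (black bar) of 32 gene lists, with the number tested in parentheses, ordered by median; the dashed line is the median of all genes at -0.03, and 1 value over 10 (Cd84) is drawn at 10. The MHC class II, macrophage surface, inflammatory and interferon-stimulated lists are the lowest 4, with medians from -1.46 to -1.21, and creatine, V-ATPase, acid transport and glycolysis lists lie at the top with medians of 2.37, 1.35, 0.73 and 0.72.

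Families defined only by their symbols added further genes on both sides. All 4 tested Ms4a genes and all 8 tested Cd300 genes, which encode membrane proteins of myeloid cells, were lower, with medians of -4.22 and -1.59, and so were all 7 Oas genes and all 3 Ifit genes of the interferon response, with medians of -1.04 and -1.72. Of the Serpinb family of intracellular protease inhibitors 8 of 10 were higher, with a median of 2.03. Among its members Serpinb1a and Serpinb6b rose by 5.46 and 6.59 on the log2 scale, at 0.05 FPKM in Control and 2.18 FPKM in RANKL and 1.93 FPKM in Control and 177 FPKM in RANKL. Of 5 tested Tnfsf cytokine genes 4 were higher, and Tnfsf8, which encodes CD30 ligand, had 0.25, 0.32 and 0.08 FPKM in the Control libraries and 30.9, 29.2 and 29.4 FPKM in the RANKL libraries. Of 11 Klf factors 6 were lower and 1 higher, with Klf2 and Klf4, factors of quiescence and macrophage polarisation, falling by 1.70 and 1.27 on the log2 scale. Within Mmp, Mmp8, neutrophil collagenase, fell from 1.46 ± 0.137 to 0.05 ± 0.0458 FPKM while Mmp9 rose. Genes of the translation and respiratory machinery were more often higher than lower, with 32 of 93 Rpl and 33 of 73 Rps genes higher, including pseudogenes and, among Rps symbols, the S6 kinases, 19 of 49 Mrpl genes, and 15 of 25 Cox genes, against 1, 6, 1 and 1 lower, and medians of 0.18, 0.22, 0.17 and 0.43. These are 34.4% of Rpl, 45.2% of Rps, 38.8% of Mrpl and 60% of Cox genes higher, against 27.3% of all tested genes. The shares lower were 1.08%, 8.22%, 2.04% and 4%, against 30.2%. Of 269 Zfp genes, mostly zinc finger factors, 109 were lower (40.5%) and 28 higher (10.4%), with a median of -0.17.

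The KEGG column of the table gave medians on both sides of 0, with 159 of 313 pathways of at least 15 tested genes above it. Pathway values are descriptions of overlapping gene sets. Their counts are to be read against the 27.3% of all tested genes that were higher and the 30.2% that were lower. The highest was Collecting duct acid secretion, which is made up of V-ATPase subunits, carbonic anhydrase and exchangers, with 16 of 19 genes higher and a median of 1.39. Glycolysis / Gluconeogenesis had 42 of 66 higher and a median of 0.70, and 28 of 45 with a median of 0.48 once pseudogenes and predicted genes, many of them copies of Gapdh, were left out. Carbon fixation in photosynthetic organisms, which shares those copies, went from a median of 0.92 to 0.25. Oxidative phosphorylation had 99 of 155 higher and 4 lower, and the Citrate cycle 22 of 31 higher and 3 lower, with medians of 0.44 and 0.47. Oxidative phosphorylation also holds V-ATPase subunits, and Atp6v0d2 and Atp6v1d led its rises. Without its 33 pseudogenes and predicted genes 91 of 122 were higher, with a median of 0.46. Glycosaminoglycan degradation had 14 of 19 higher, led by the hyaluronidase Hyal1 at 3.34 ± 0.398 FPKM in Control and 21.8 ± 0.243 FPKM in RANKL, and Protein export had 18 of 26 higher and 0 lower. Synaptic vesicle cycle, with 25 of 47 higher, was led by Slc18a1 and Slc6a4, transporters of monoamines, at 0.0567 FPKM in Control and 3.31 FPKM in RANKL and 0.0433 FPKM in Control and 2.01 FPKM in RANKL, beside the V-ATPase subunits, and Slc18a1 lies opposite Atp6v1b2.

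The pathway named Osteoclast differentiation did not rise as a whole. Of its 110 tested genes 38 were higher and 49 lower, 12 and 16 by at least 2-fold, and the median was -0.11. Its largest falls were Fosb, Fcgr1, Socs3, a suppressor of cytokine signalling, and Fcgr3, which are also macrophage or immediate response genes. The lowest medians belonged to immune pathways, Staphylococcus aureus infection with 19 of 24 lower and a median of -1.71, Graft-versus-host disease with 19 of 22 lower and -1.50, Hematopoietic cell lineage with 20 of 34 lower and -0.89, and Cell adhesion molecules with 37 of 56 lower and -0.85. Antigen processing and presentation had 32 of 54 lower, 14 by at least 2-fold and 0 higher by 2-fold. Toll-like receptor signaling had 40 of 79 lower and 16 higher. Complement and coagulation cascades had 7 of 20 higher and 10 lower, and its median turned from -0.25 to 0.12 without pseudogenes and predicted genes. Lysosome had 52 of 121 higher and 34 lower, with a median of 0.10. PI3K-Akt signaling had a median of 0.02, with 74 of 202 genes higher (36.6%) and 68 lower (33.7%). FoxO signaling had a median of -0.11, with 27 of 101 higher (26.7%) and 40 lower (39.6%). The shares over all tested genes were 27.3% higher and 30.2% lower. Pyrimidine metabolism had 6 of 43 higher and 16 lower.

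**Figure D5:**
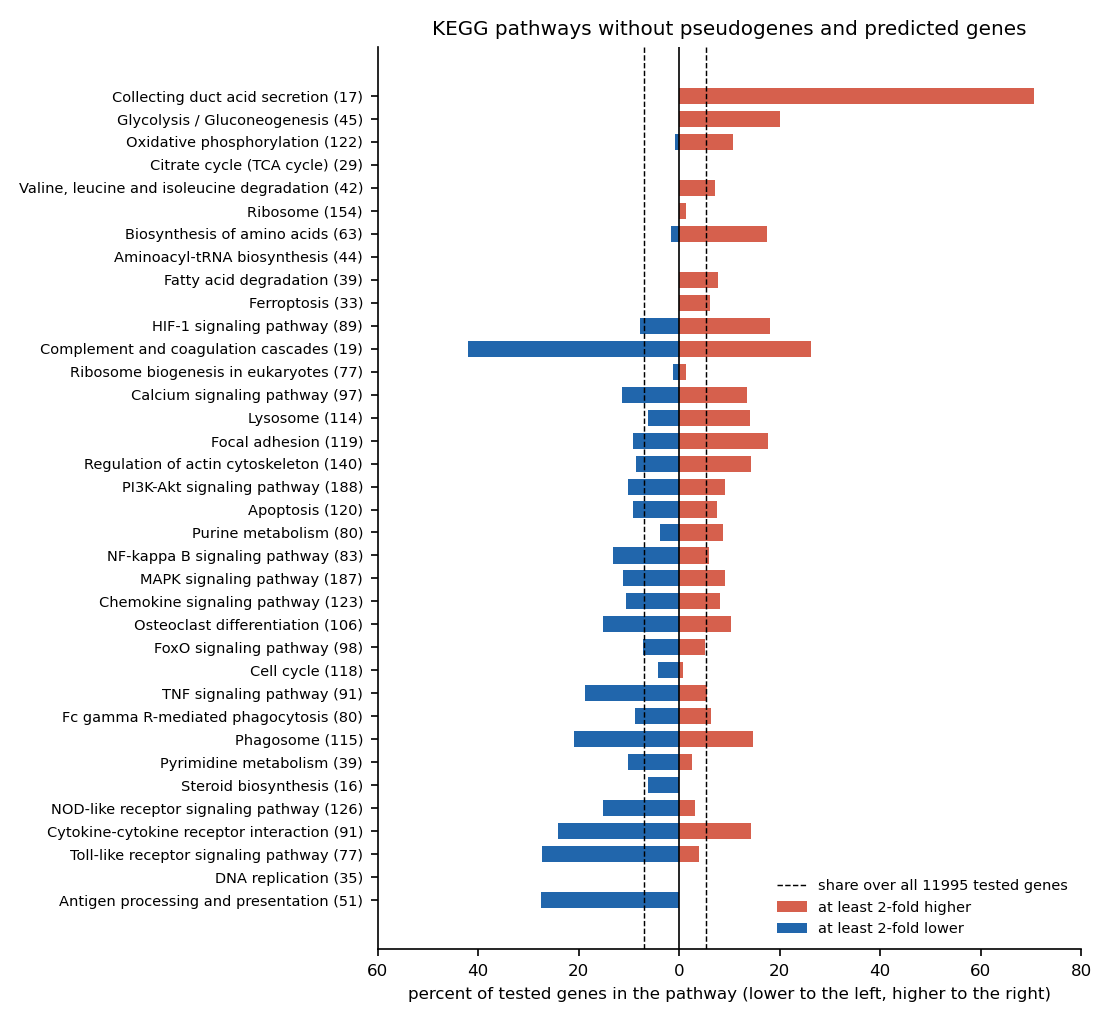
Percent of the tested genes of each KEGG pathway that were at least 2-fold higher (red, to the right) or lower (blue, to the left) in RANKL, with the number tested in parentheses and pseudogenes and predicted genes left out, ordered by median; the dashed lines mark 5.39% and 7.06%, the shares over all tested genes. Collecting duct acid secretion extends furthest to the right, Complement and coagulation cascades has long bars on both sides, and Antigen processing and presentation has a bar only on the left.

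GO terms added finer groups. Of 1617 terms with at least 15 tested genes, 778 had a median above 0. Counts within a term stand beside shares of 27.3% higher and 30.2% lower over all tested genes. The rotary proton-transporting ATPase term had 17 of 19 higher and a median of 1.28, positive regulation of bone resorption had 11 of 16 higher and a median of 0.73, and NADH dehydrogenase (ubiquinone) activity had 18 of 25 higher and 0 lower. Osteoclast differentiation as a GO term, unlike the KEGG pathway of that name, had 14 of 25 higher and 6 lower, with a median of 0.43. Bone resorption had 8 of 14 higher, led by Acp5 and by Gpr55, a lipid receptor with 0 counts in Control and 35, 33 and 33 in RANKL. Podosome had 16 of 29 higher and 4 lower, and mitochondrial inner membrane 158 of 335 higher and 51 lower. At the other end, positive regulation of chemokine production had 19 of 23 lower and a median of -0.84, defense response to bacterium 30 of 41 lower and -0.68, and defense response to virus 75 of 138 lower and -0.36. Cell division had 148 of 323 lower and 60 higher, with a median of -0.13. GO terms for GAPDH activity ranked among the highest with a median of 0.94, but 12 of their 15 genes were pseudogenes or predicted genes, and the median of the other 3 was -0.14.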

How the data were processed

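RNA of RAW264.7 cells was measured in 9 libraries, of which 6 are compared here. Per the labels, libraries were poly(A)-selected and strand-specific. The authors deposited, in 1 table, whole-number counts of reads per gene without normalization, and FPKM, which they made from these counts, exonic lengths and library totals. The aligner, the counter and whether counting used strand are not given in the sources used here, so a gene that overlaps another on the opposite strand is named with that limit. The labels list mm10, but of 52073 genes also found in the GRCm38 annotation only 1472 have the same coordinates, so the build of the table is not known. The labels call the libraries of a group replicate biosamples without saying that they came from separate cultures, so p-values measure only the spread between these libraries, which may be technical. The floor was set at 3 counts per library, and it covers counting error only.

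Counts were tested with edgeR 4.0.16 (R 4.3.3), using TMM scaling, the quasi-likelihood test, all 9 libraries in 1 fit, the contrast of RANKL and Control, and Benjamini-Hochberg adjustment over the 11995 genes that reached 1 FPKM in 3 or more libraries. The SE was taken from the fold change and its F value. Alternatives were RLE factors, total counts, DESeq2 1.42.0, no filter, filterByExpr, only 6 libraries, a replicate block, limma 3.58.1 on log2(FPKM + 1) and log2(FPKM + 0.1), and each library left out. Leaving out replicate 3 of both groups, and pathways without the 1687 tested pseudogenes or predicted genes, were added after seeing the data. Procedures were tested on simulated data. Tables were made with Python 3.11.15 and pandas 2.3.3.

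The genes named are members of gene lists, the 20 largest rises and falls among called genes whose libraries do not overlap, the 10 largest gains and losses of the transcript pool, genes at the floor in 1 group, and leading genes of symbol families, KEGG pathways and GO terms. Members and lists were chosen with earlier results of these data known. Single results of some genes are not reported here.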

Additional observations from a re-analysis of the deposited data

How the results depend on the processing

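No called gene had a call in the opposite direction under any of the 16 alternatives. With each library left out in turn, 2994 to 3237 genes were higher and 3316 to 3546 lower, of which 641 to 656 and 816 to 866 changed by at least 2-fold. Leaving out replicate 3 of both groups gave 651 and 857. Without the filter on FPKM, 26736 genes were tested and 1180 were at least 2-fold higher and 1282 lower. With filterByExpr, 14065 genes were tested and 988 were at least 2-fold higher. With limma on log2(FPKM + 1), which shrinks the change of low genes, 397 were at least 2-fold higher and 617 lower, and 65.5% of the 2-fold calls remained. On that scale 36.9% of all called genes were higher (2500 against 4277 lower). The other settings kept the counts within 1.5 times of those reported. Same-numbered libraries of the groups had correlated deviations of only 0.0745, 0.0155 and 0.0345, so the numbers were not taken as pairs, and a replicate block gave 643 genes at least 2-fold higher and 836 lower, with 3346 higher and 3694 lower at any size. Of 214 genes named, 198 kept both direction and call under all 16 alternatives and 0 changed direction. Calls of Atp6v0a2, Atp6v0e2, Cdkn1b, Cdt1, H2-Eb1, Irf4, Junb, Lck and Pdia3 were lost with at least 1 library left out and that of Traf6 with total counts. Under some alternatives Ctsb, Fastk and Hmox1 passed as higher, and Cd47, Dhodh and mt-Co1 as lower. The cause was not tested. Genes at a few counts per library are known only as bounds at this depth.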
